A study of Mus musculus with 4 samples.

Results

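The cartilage programme was read from 132 ATAC-seq peaks, out of 128055 peaks in the whole data set, that lay in or within 20 kb of 10 mouse genes. The genes were the transcription factors Sox9, Sox5 and Sox6, the matrix genes Acan, Col2a1, Comp, Matn3 and Col10a1, and the growth plate signalling genes Ihh and Pth1r, with gene models from GENCODE M21 on the mm10 (GRCm38) build. Of the 132 peaks, 14 were promoter peaks (within 1 kb of the start of a protein-coding transcript of the gene), 86 were gene-body peaks, 17 lay in the upstream flank and 15 in the downstream flank. In addition to lying in the window of a member gene, 9 of these peaks lay within 1 kb of the start of another protein-coding gene.

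ATAC-seq uses the Tn5 transposase, which cuts and tags open DNA, so the reads of a peak measure how accessible that stretch of chromatin was. The cells were mesenchymal stem cells (MSCs) from the bones of wild-type male C57BL/6N mice aged 3 to 5 months, grown from bone chips in low oxygen and sorted as CD45-, Ter-119-, CD140a+ and Sca-1+ cells. They were then kept in hypoxia (2% O2) or moved to normoxia (21% O2), with 2 libraries of 50000 cells in each group. Both groups had therefore been in low oxygen before the split, the cells were a cultured population, and the number of animals behind a library was not given in the sources used here. The study describes the libraries as biologically independent experiments, and p-values measure only the spread between these libraries. The standard error (SE) and p-value of a peak also draw on other peaks of similar strength. They do not measure that peak's own spread alone. The comparison asks how accessibility at these genes differs after long exposure to normoxia.

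Cartilage is made when mesenchymal progenitors switch on Sox9, the master regulator of the chondrocyte, which acts together with its partners Sox5 and Sox6 on the genes of the cartilage matrix. Chondrocytes secrete type II collagen (Col2a1), the large proteoglycan aggrecan (Acan) and the bridging proteins COMP and matrilin-3, and hypertrophic chondrocytes turn to type X collagen (Col10a1). In the growth plate Indian hedgehog (Ihh) and the receptor for parathyroid hormone and its related protein (Pth1r) form a feedback loop that sets the pace of maturation. MSCs can enter this lineage, the bone lineage or the fat lineage.

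Sequences of some of these regions are shown from the RefSeq promoter set for GRCm38.p6 (250 bases before to 50 after a start) and from the centre of 2 intronic peaks. RefSeq promoters were matched by symbol for 7 of the 10 genes, with 14 entries in all, of which 8 overlapped a peak of their gene. Promoter entries were not used here for Sox9, Col2a1 and Comp. The promoter of Sox6 at chr7:116030998-116031297 (minus strand) lay in a peak called lower in normoxia, the promoter of Ihh at chr1:74951623-74951922 (minus strand) belonged to the gene whose summed signal was called higher, and the promoter of Col10a1 at chr10:34389731-34390030 (plus strand) lay in a peak of few reads (26 to 49 per library). The peaks of the Sox5 intron (central 300 bases, chr6:144716551-144716850, plus strand) and the Sox6 intron (chr7:116000401-116000700, plus strand) were the 2 called higher. Each is written 5′ to 3′, and capitals mark a match on either strand to the SOX core AACAAT, to the core ACAAAG bound by SOX and TCF proteins, to the hypoxia response core ACGTG, to the GC box GGGCGG, to the TATA box TATAAA, to the CCAAT box, to the AP-1 motif TGANTCA or to the RUNX core TGTGGT. Matches were allowed to overlap each other.
Sox6 promoter: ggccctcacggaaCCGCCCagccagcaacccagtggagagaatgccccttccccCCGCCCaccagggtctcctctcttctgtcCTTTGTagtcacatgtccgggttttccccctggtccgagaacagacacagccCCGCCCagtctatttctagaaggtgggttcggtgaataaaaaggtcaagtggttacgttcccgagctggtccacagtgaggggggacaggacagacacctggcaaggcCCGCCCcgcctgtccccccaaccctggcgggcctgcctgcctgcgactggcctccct
Ihh promoter: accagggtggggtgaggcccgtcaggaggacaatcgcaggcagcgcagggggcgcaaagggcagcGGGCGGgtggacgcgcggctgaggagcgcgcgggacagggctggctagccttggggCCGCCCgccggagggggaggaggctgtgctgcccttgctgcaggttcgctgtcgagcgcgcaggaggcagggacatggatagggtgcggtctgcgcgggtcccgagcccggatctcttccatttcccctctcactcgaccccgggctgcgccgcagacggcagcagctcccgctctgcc
Col10a1 promoter: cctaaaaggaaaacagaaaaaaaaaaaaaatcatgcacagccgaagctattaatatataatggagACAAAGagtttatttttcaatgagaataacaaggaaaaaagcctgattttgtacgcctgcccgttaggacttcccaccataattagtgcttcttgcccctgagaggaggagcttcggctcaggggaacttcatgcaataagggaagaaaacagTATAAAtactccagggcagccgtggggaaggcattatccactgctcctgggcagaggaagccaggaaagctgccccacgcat
Sox5 intron peak: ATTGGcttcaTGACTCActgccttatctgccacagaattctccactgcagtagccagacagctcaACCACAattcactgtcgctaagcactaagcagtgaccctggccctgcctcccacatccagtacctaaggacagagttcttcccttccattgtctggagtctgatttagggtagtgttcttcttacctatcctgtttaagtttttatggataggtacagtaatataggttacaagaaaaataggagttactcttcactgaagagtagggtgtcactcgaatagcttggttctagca
Sox6 intron peak: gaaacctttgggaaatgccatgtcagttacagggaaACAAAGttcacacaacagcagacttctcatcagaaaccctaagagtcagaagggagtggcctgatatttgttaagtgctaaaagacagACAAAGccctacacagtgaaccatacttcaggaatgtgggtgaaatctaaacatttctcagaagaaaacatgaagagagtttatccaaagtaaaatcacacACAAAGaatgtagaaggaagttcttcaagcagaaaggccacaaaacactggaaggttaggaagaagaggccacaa

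The 2 promoters at the top are rich in GC boxes, which the Sox6 window held 4 times and the Ihh window 2 times, against 35.7% of 32851 RefSeq promoters with at least 1. They held 13 and 30 CpG dinucleotides, where the median promoter held 7. The Col10a1 promoter held 6 CpG, 1 TATA box (13.6% of all promoters) and 1 copy of ACAAAG (18.7% of all promoters). The Sox6 intron window held ACAAAG 3 times, a motif found in 23.8% of the central 300-base windows of the 120159 peaks at least 300 bases wide. In the Sox5 intron window there was 1 AP-1 match (21.0% of peak windows), 1 RUNX core (26.5%) and 1 CCAAT box (33.4%). ACGTG was in none of the 5 printed windows. It was in 1 of the 14 member promoters, a further Sox6 start that lay outside the peaks, and in 19.6% of all promoters. Over the centres of member peaks, AACAAT was found in 25 of 123 windows (20.3%) and ACAAAG in 25 (20.3%), against 14.9% and 23.8% of all peak windows. A match in these windows describes the letters only.

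Each value below is the number of reads in a peak per 10000000 reads of the library, which is a signal not divided by peak width. Levels of different genes are compared only per kb of peak. The libraries held between 26680936 and 29965523 reads, and the median member peak held 43 reads per library, so the weaker peaks rest on few reads. Peaks of the nuclear genome took 49.2% and 53.2% of the reads in hypoxia but 31.0% and 35.2% in normoxia, and on the deposited scale the median peak of the whole table was therefore lower in normoxia by 0.44 on the log2 scale. To compare single peaks beyond this shift, values were divided by relative log expression (RLE) factors computed over all peaks, after which the median log2 fold change of all peaks was -0.0040. A fold change is given for normoxia relative to hypoxia as a difference of log2(value + 1), and a peak was called at a false discovery rate (FDR) under 0.01 with limma over all peaks. All 6 promoters of MSC and stromal marker genes (Ly6a, Pdgfra, Thy1, Eng, Cd44, Nt5e) carried peaks, with a summed signal of 1230 to 1245 in hypoxia and 666 to 764 in normoxia. The blood markers Ptprc, Itgam and Cd3e had no promoter peak. Endothelial markers had promoter peaks at 2 of 3 genes (summed signal 67.6 to 69.4 in hypoxia, 42.0 to 51.1 in normoxia; Cdh5 without a peak) and osteoclast markers at 2 of 3 (149 to 159 and 93.7 to 102; Calcr without a peak). These sums cover lists of unlike gene number and peak width, so they do not rank the cell types. Per kb of peak, as a mean over the 4 libraries, the MSC and stromal promoters ranged from 7.37 (Eng) to 21.1 (Pdgfra). On the same measure Tek had 27.3, Pecam1 12.7, Ctsk 34.1 and Acp5 10.5. The part of other cell types in the results below was not tested.

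Over all 132 peaks, 5 were called lower in normoxia (3.79%, against 4.57% of all peaks) and 2 were called higher (1.52%, against 1.77%). The shares of called peaks were thus close to those of the whole table in both directions. The median log2 fold change of the member peaks was 0.08, with 58 peaks below 0 and 74 above. The peaks called lower were the Col2a1 promoter, a second Col2a1 peak inside the gene, 1 of 3 Sox6 promoter peaks, a peak upstream of Comp and a peak in the Col10a1 window that sits at the start of the neighbouring gene Nt5dc1. The peaks called higher were both intronic, in Sox5 and in Sox6. limma without its mean trend and robust options called none of the 132 peaks, while edgeR on reads recovered from the values called 6 lower and 2 higher. Under quantile normalization the 7 peaks had the same signs but none was called, with an FDR of 0.0139 and a fold change of -0.45 at the Col2a1 promoter and an FDR of 0.0132 to 0.212 over the 7. With 1 library left out, a group of 1 is assumed to vary like the other group, which then gives the spread. Without either hypoxia library limma called 0 of the 128055 peaks, with a lowest FDR of 0.0232 and 0.0627, so the loss of a single call there says little about that peak, and the fold changes are given beside it. After scaling, both normoxia libraries were below both hypoxia libraries at 30 member peaks (29.6% of all peaks had this order) and above both at 42 (27.4% of all peaks). On the deposited scale, 72 member peaks were lower in both normoxia libraries (59.5% of all peaks) and 12 were higher (6.94% of all peaks). The peak caller assigned 8 member peaks to hypoxia only (6.84% of all peaks) and 0 to normoxia only.

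The 14 promoter peaks of the 10 genes had fold changes near those of promoters in the whole table. Their median log2 fold change was -0.26, and that of 17670 promoter peaks was -0.27. Called lower were 2 of the 14 (14.3%, against 16.7% of all promoter peaks), and 0 were called higher by limma (0.441% of all promoter peaks). After scaling 8 of the 14 were lower in both normoxia libraries (60.3% of all promoter peaks) and 1 was higher in both (10.3%), and as deposited 11 were lower in both (86.0%). At an unadjusted limma p under 0.05, 7 promoter peaks were lower (44.1%) and 1 was higher (3.88%), and edgeR on the recovered reads also called 2 lower and 0 higher. Of the 118 other member peaks, 3 were called lower (2.64% of all such peaks) and 2 higher (1.98%), and their median was 0.11.

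**Figure D1:**
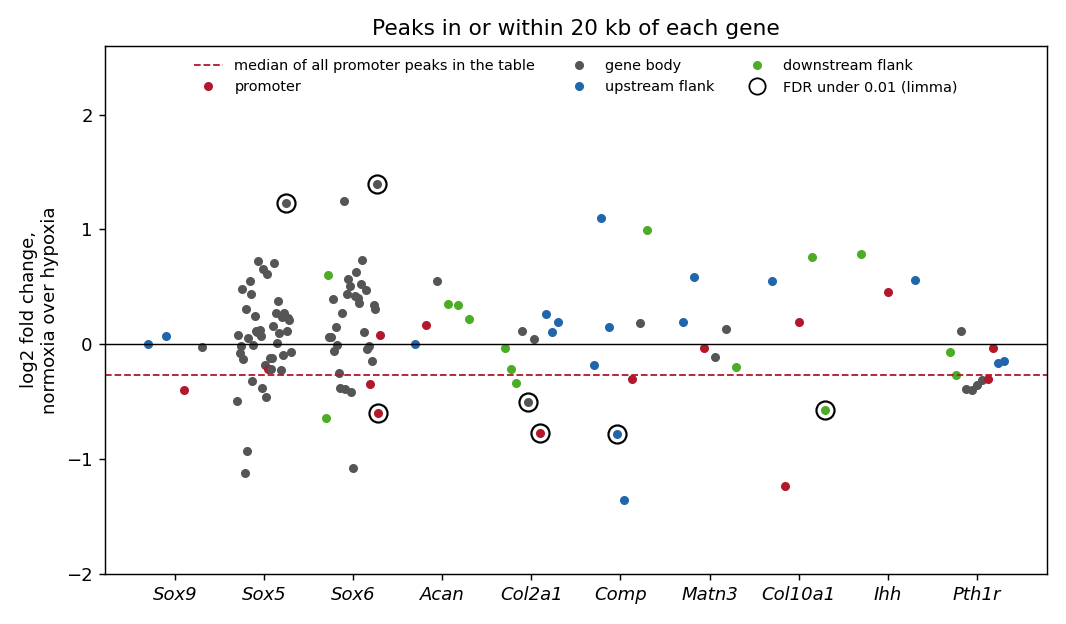
Log2 fold change (y axis, normoxia over hypoxia, RLE-scaled) of the 132 peaks in or within 20 kb of each gene, drawn by gene and in genomic order within a gene. Colours give the class of the peak, black rings mark the 7 peaks with an FDR under 0.01, and the dashed line is the median of all promoter peaks at -0.27.

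After scaling, the strong and the weak peaks of these genes had medians of opposite sign, whereas on the deposited scale both medians were negative, at -0.72 over a mean value of 50 and -0.18 under 10. Among the 23 member peaks with a mean value over 50, 20 had a negative scaled fold change and 4 were called lower (17.4%, against 19.6% of all peaks of that strength), with a median of -0.25 (all such peaks -0.27). Among the 46 peaks with a mean value under 10, 15 were negative and 31 positive, none was called by limma or by edgeR, and the median was 0.23 (all such peaks 0.09). In that group 3 were lower and 6 higher at an unadjusted limma p under 0.05, and the peaks held a median of 15 reads per library. Across the 132 peaks, Spearman's rho of the fold change was -0.32 with the mean value, -0.19 with GC content and -0.30 with peak width. Over all 128055 peaks the same values were -0.16, -0.18 and -0.10. The points share their 4 libraries, so these are descriptions only.

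The level of each gene's strongest promoter peak, per kb of peak on the deposited scale, spanned a wide range (n = 2 libraries in each group). In hypoxia the Sox9 promoter was the highest at 47.6 ± 0.41 (mean ± SD), followed by Col2a1 at 44.7 ± 1.8 and Comp at 43.1 ± 1.6. The libraries of Col2a1 and Comp overlapped, and both lay below Sox9 and above Sox6 (29.0 ± 2.2), which overlapped Pth1r (27.6 ± 0.15). Matn3 (25.2 ± 0.65) stood apart from its neighbours. Col10a1 (16.3 ± 3.1) overlapped Sox5 (14.3 ± 0.47), and Ihh (9.14 ± 0.060) and Acan (7.91 ± 1.0) were at the bottom, without overlap. In normoxia Sox9 (25.9 ± 1.2) overlapped Comp (25.1 ± 1.8) at the top, and Col2a1 (18.8 ± 2.2) lay below both. From Col2a1 down to Matn3 (17.8 ± 3.4), Pth1r (16.0 ± 2.4), Col10a1 (13.8 ± 4.1) and Sox6 (13.7 ± 1.6), each overlapped the next. Ihh (9.13 ± 1.6) overlapped Sox5 (8.76 ± 0.47), and Acan (6.44 ± 1.3) stayed lowest. Sox6 thus ranked 4 of 10 in hypoxia and 7 of 10 in normoxia.

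**Figure D2:**
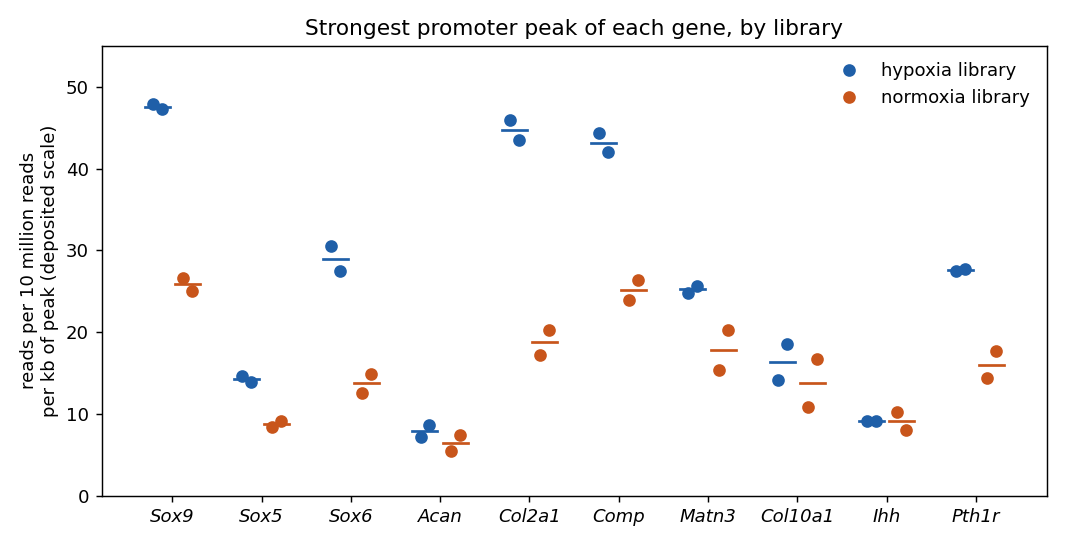
Accessibility of the strongest promoter peak of each gene (y axis, reads per 10000000 reads per kb of peak, deposited scale), with 1 point per library and a line at the mean of the 2 libraries of a group. The normoxia means of Sox9 and Col2a1, 25.9 and 18.8, lie below their hypoxia libraries without overlap, whereas the Ihh points of both groups lie around 9.1.

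Among the transcription factors, Sox9 is covered by 4 peaks. Its promoter peak, chr11:112780901-112784300, reaches 1323 bp upstream of the gene and 2077 bp into it. The values were 163 and 161 in hypoxia against 90.7 and 85.1. Normoxia was lower without overlap, also after scaling, with a log2 fold change of -0.40 (SE 0.13) that did not pass the threshold (FDR 0.028). A peak over the end of the last exon, chr11:112787601-112788900, shares only 160 of its 1300 bp with Sox9 and lies mostly past the gene. It had 14.5 and 13.9 in hypoxia and 9.37 and 10.7 in normoxia, and its scaled values overlapped (log2 fold change -0.03, SE 0.26). The 2 flanking peaks upstream of Sox9 were weak, with fold changes of -0.0021 and 0.07.

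Sox5 and Sox6, whose proteins bind beside SOX9 at cartilage genes, are long genes of 953553 bp and 567925 bp and held 44 and 35 of the member peaks. Sox5 had 1 promoter peak, chr6:144207801-144211800, at 58.4 and 55.8 in hypoxia against 33.7 and 36.4 in normoxia. The scaled values did not overlap, but the fold change of -0.22 (SE 0.16) was not called (FDR 0.388). This promoter peak lies at an internal start, 572 kb from the 5′ end of the annotated gene. The peak over that 5′ end, chr6:144780501-144782700, is no promoter peak by the rule used, and was counted as a gene-body peak. It had 29.4 and 30.9 in hypoxia and 20.6 and 20.7 in normoxia (-0.06, SE 0.20, FDR 0.868). The strongest Sox5 peak lay in an intron, chr6:143915601-143917200, with 164 and 199 in hypoxia against 103 and 136 in normoxia. These overlapped after scaling (-0.13, SE 0.12, FDR 0.515).

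Sox6 had 3 promoter peaks, and they did not move as 1. The strongest, chr7:116029801-116035200, holds the promoter printed first above and had 165 and 148 in hypoxia and 67.8 and 80.4 in normoxia. It was called lower, with a log2 fold change of -0.60 (SE 0.13, FDR 0.0020). The peak at a start further inside the gene, chr7:115824101-115826500, had 94.8 and 118 in hypoxia and 54.0 and 66.1 in normoxia (-0.34, SE 0.14, FDR 0.088). The peak nearest the 5′ end of the gene, chr7:116039301-116040800, is shared with the start of 1110004F10Rik and had 41.0 and 33.3 in hypoxia and 30.4 and 26.03 in normoxia (0.08, SE 0.19, FDR 0.825). The difference between these promoter peaks was not tested. The FDR of the strongest promoter was 0.202 without hypoxia replicate 1 and 0.168 without hypoxia replicate 2, with fold changes of -0.47 and -0.74.

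The 73 gene-body peaks of Sox5 and Sox6, of which 64 touched no exon of their gene, had a median log2 fold change of 0.11, with 27 negative and 46 positive. All peaks away from promoters had a median of 0.05. The median was 0.10 over the 43 peaks of Sox5 and 0.29 over the 30 of Sox6. Called were 2 of the 73 peaks, both higher (2.74%, against 1.98% of all peaks away from promoters) and neither overlapping an exon.

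The Sox5 peak called higher, chr6:144716301-144717100, lies 65.3 kb from the 5′ end of the annotated gene. It had 8.49 and 7.48 in hypoxia and 13.5 and 15.7 in normoxia, from 24 and 22 reads against 36 and 47. It was higher in both normoxia libraries on the deposited scale as well, and the scaled log2 fold change was 1.23 (SE 0.28, FDR 0.0028). On the deposited scale the fold change was 0.79 (FDR 0.026). Without hypoxia replicate 1, hypoxia replicate 2, normoxia replicate 1 or normoxia replicate 2 the FDR was 0.175, 0.17, 0.0111 or 0.0158, and the fold change 1.35, 1.09, 1.28 or 1.2.

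The Sox6 peak called higher, chr7:116000201-116000900, holds the 3 ACAAAG copies shown above and lies 38.2 kb from the 5′ end of the gene. Its values were 3.89 and 10.9 in hypoxia against 12.0 and 16.0 in normoxia, from 11 and 32 reads against 32 and 48. Normoxia was the higher without overlap, though the hypoxia libraries differed widely (7.39 ± 4.9, SD, n = 2). The log2 fold change was 1.39 (SE 0.32, FDR 0.0035), and it was 0.81 (FDR 0.216) without hypoxia replicate 1, 1.95 (FDR 0.168) without hypoxia replicate 2 and 1.27 (FDR 0.0182) without normoxia replicate 2. Thus within the single gene Sox6, 1 promoter peak was called lower and 1 intronic peak further along the gene was called higher. The strongest gene-body peak of Sox6, chr7:115547101-115549100, had 88.1 and 130 in hypoxia and 55.8 and 74.4 in normoxia (-0.25, SE 0.15, FDR 0.267).

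**Figure D3:**
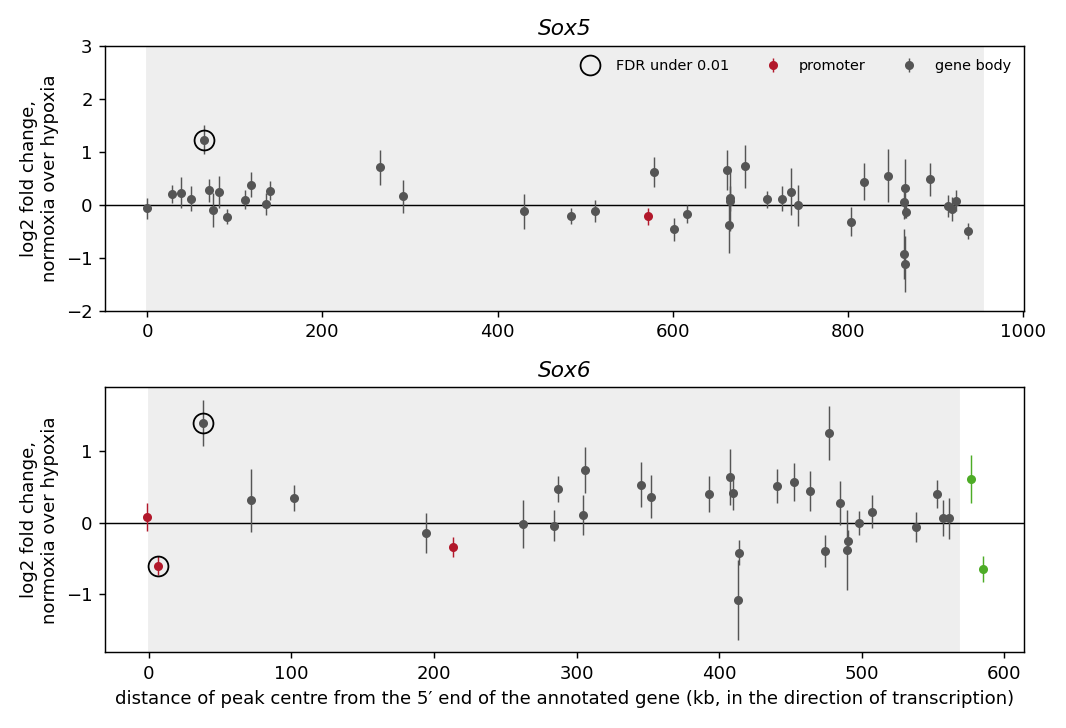
Log2 fold change (y axis, normoxia over hypoxia, bars are SE) of each peak of Sox5 and Sox6 against the distance of its centre from the 5′ end of the gene (x axis, kb), with the gene span shaded. The called peaks are ringed, at 65.3 kb in Sox5 (higher) and at 6.30 kb (lower) and 38.2 kb (higher) in Sox6.

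Among the matrix genes, Col2a1 had the promoter with the larger fall of the 2 member promoters called lower. Its promoter peak, chr15:98000601-98005600, reaches 905 bp upstream of the gene and 4095 bp into it, and so also covers the start of the gene body. The values were 230 and 217 in hypoxia against 86.2 and 101 in normoxia. Normoxia was lower without overlap, with a log2 fold change of -0.77 after scaling (SE 0.12, FDR 6.43e-05) and -1.25 on the deposited scale. A second peak that covers exons and introns inside the gene, chr15:97989501-97993900, had 125 and 130 in hypoxia and 59.6 and 69.4 in normoxia (-0.50, SE 0.13, FDR 0.0088). The other 8 Col2a1 peaks were not called and ranged from -0.34 to 0.27. The FDR of the promoter was 0.175 without hypoxia replicate 1 and 0.168 without hypoxia replicate 2, with fold changes of -0.68 and -0.87. For the second peak it was 0.2 and 0.179, with fold changes of -0.48 and -0.53, and without normoxia replicate 1 it was 0.0268.

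Within a library the ratio of 2 peaks does not depend on scaling, and the Col2a1 promoter was set against the strongest promoter peak of each other gene in this way, a comparison chosen after its values were seen and given without a test. Relative to Ihh it was 6.76 and 6.45 in hypoxia against 2.28 and 3.42 in normoxia. Relative to Sox9 it was 1.41 and 1.35 in hypoxia against 0.950 and 1.19 in normoxia, and relative to Comp 0.960 and 0.958 against 0.669 and 0.712. Sox6 came closest to moving with Col2a1, at 1.39 and 1.47 in hypoxia against 1.27 and 1.26 in normoxia. The ratio was lower in both normoxia libraries against each of the 9 other genes. Col2a1 had the most negative scaled fold change of these promoter peaks (-0.77, then Sox6 at -0.60), so this result was largely fixed by its choice. Over all peaks the median fold change was -0.27 above a mean value of 50 and 0.09 under 10. The part of peak strength in the ratios to weaker promoters such as Ihh was not tested.

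Acan, the gene of aggrecan, had no called peak. Its promoter peak, chr7:79052301-79055100, had 20.2 and 24.1 in hypoxia and 15.4 and 20.7 in normoxia, which overlap (-0.29 as deposited, 0.16 after scaling, SE 0.22, FDR 0.669). The peak inside the gene, chr7:79080501-79083500, had 32.9 and 26.9 in hypoxia and 31.9 and 31.4 in normoxia. Its deposited values overlapped, its scaled values were higher in both normoxia libraries, and the fold change of 0.55 (SE 0.19; 0.09 as deposited) did not pass the threshold (FDR 0.048). All 6 Acan peaks had a positive scaled fold change, between 0.0042 and 0.55, while 5 of them had a negative one on the deposited scale. The difference from Col2a1 was not tested.

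Comp, the cartilage oligomeric matrix protein, lies in a densely covered window with 8 peaks. Its promoter peak, chr8:70371501-70376900, was the strongest peak of the gene, at 239 and 227 in hypoxia and 129 and 142 in normoxia (-0.30, SE 0.11, FDR 0.065). Just upstream, at 2458 bp from the start, the peak chr8:70370101-70371100 had 59.1 and 67.3 in hypoxia and 26.2 and 25.7 in normoxia. It was called lower, at -0.78 (SE 0.17, FDR 0.0019), with -0.83 (FDR 0.175) without hypoxia replicate 1 and -0.75 (FDR 0.17) without hypoxia replicate 2. Past the end of the gene, the wide peak chr8:70381901-70392100 had 167 and 154 in hypoxia and 124 and 139 in normoxia (0.19, SE 0.12, FDR 0.308). It shares only 166 bp with Comp. The promoter and this distal peak had opposite signs after scaling, a difference that was not tested.

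Matn3, the gene of matrilin-3, had no called peak. Its promoter peak, chr12:8946001-8948700, had 66.9 and 69.4 in hypoxia and 41.6 and 54.7 in normoxia, and the scaled values overlapped (-0.03, SE 0.15, FDR 0.912). An intronic peak, chr12:8969101-8970400, was stronger, with 91.7 and 108 in hypoxia and 76.5 and 80.1 in normoxia (0.13, SE 0.13, FDR 0.55). The peak with the lowest p lay upstream, chr12:8935201-8936800, at 13.4 and 16.7 in hypoxia and 15.7 and 17.4 in normoxia (0.58, SE 0.24, FDR 0.093).

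Col10a1, the marker of the hypertrophic chondrocyte, had little signal of its own. Its stronger promoter peak, chr10:34389301-34390200, had 12.7 and 16.7 in hypoxia and 9.74 and 15.0 in normoxia, from 26 to 49 reads per library, and the groups overlapped (0.20 after scaling, SE 0.26, FDR 0.663). The peak called lower in its window, chr10:34415901-34419400, had 226 and 223 in hypoxia and 94.4 and 123 in normoxia (-0.57, SE 0.12, FDR 0.0013). That peak covers the start of Nt5dc1 and lies 25920 bp from the Col10a1 start, so it cannot be assigned to Col10a1. It was -0.52 (FDR 0.197) without hypoxia replicate 1 and -0.65 (FDR 0.17) without hypoxia replicate 2.

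Of the signalling genes, Ihh had 3 peaks, and all had a positive scaled fold change. The promoter peak, chr1:74948501-74952200, had 34.0 and 33.7 in hypoxia and 37.9 and 29.7 in normoxia. On the deposited scale the groups overlapped and the fold change was -0.01. After scaling both normoxia libraries were higher, with a fold change of 0.45 (SE 0.19) that was not called (FDR 0.098). The upstream peak, chr1:74964401-74965100, had 9.55 and 7.48 in hypoxia and 9.0 and 9.68 in normoxia (0.56, SE 0.30, FDR 0.216). On the deposited scale the median of all promoter peaks was -0.73. The groups also overlapped on that scale at the promoters of Acan (-0.29) and Col10a1 (-0.25), and the difference of Ihh from the other genes was not tested.

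Pth1r had 11 peaks, of which 10 had a negative scaled fold change and none was called by limma (2 were lower at an unadjusted p under 0.05) or by edgeR. Its strongest promoter peak, chr9:110741601-110744500, also touches a start of Myl3 and had 79.6 and 80.2 in hypoxia and 41.6 and 51.4 in normoxia (-0.31, SE 0.15, FDR 0.162). The strongest peak of the gene was intronic, chr9:110731901-110734500, with 150 and 145 in hypoxia and 70.1 and 97.4 in normoxia (-0.35, SE 0.13, FDR 0.066). In both peaks normoxia was lower without overlap after scaling, and the normoxia libraries differed from each other more than the hypoxia libraries did.

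Summing the peaks of each gene with 20 kb on either side gave 1 value per gene and library. Of the 10 sums, 2 were called lower (27.9% of 18696 protein-coding loci) and 1 was called higher (2.40% of loci). The Col2a1 sum was 525 and 493 in hypoxia against 251 and 282 in normoxia, with a scaled log2 fold change of -0.46 (SE 0.090, FDR 4.93e-06) beside a median of -0.16 over all loci. Without hypoxia replicate 1 it was -0.36 (FDR 0.0206). With quantile normalization the Col2a1 sum was -0.27 (FDR 0.0148) and with equal totals over peaks -0.17 (FDR 0.119). The Col10a1 sum was 252 and 261 in hypoxia against 117 and 159 in normoxia (-0.43, SE 0.10, FDR 0.000237). It was not called lower without normoxia replicate 1 (-0.26, FDR 0.054) or without hypoxia replicate 1 (-0.41, FDR 0.0211), and without the peaks at starts of other genes, here the Nt5dc1 peak, it was 0.33 (SE 0.20, FDR 0.197).

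The Ihh sum was 48.8 and 45.2 in hypoxia against 53.6 and 45.4 in normoxia, and was called higher after scaling (0.54, SE 0.17, FDR 0.0052). On the deposited scale it was 0.07 (FDR 0.736), so this call rests on the scaling. It was also lost without hypoxia replicate 1 (FDR 0.0163), hypoxia replicate 2 (FDR 0.112) or normoxia replicate 1 (FDR 0.156). The 7 other sums were not called. Sox9 had 189 and 192 in hypoxia and 112 and 104 in normoxia (-0.33, SE 0.11, FDR 0.0105), Pth1r had 636 and 593 against 335 and 424 (-0.22, FDR 0.023), and Acan had 116 and 108 against 97.1 and 106 (0.33, SE 0.12, FDR 0.021). Sox5 (1116 and 1209 against 790 and 852) and Sox6 (898 and 1032 against 627 and 713) had scaled fold changes of -0.02 and -0.05. Comp and Matn3 were at -0.12 and 0.07. As deposited, 8 of the 10 sums were called lower (81.6% of all loci) and 0 higher by limma (0.203% of all loci). With 2 libraries against 2 an exact permutation test of a single sum cannot give a two-sided p under 0.3333, and none was used as support.

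**Figure D4:**
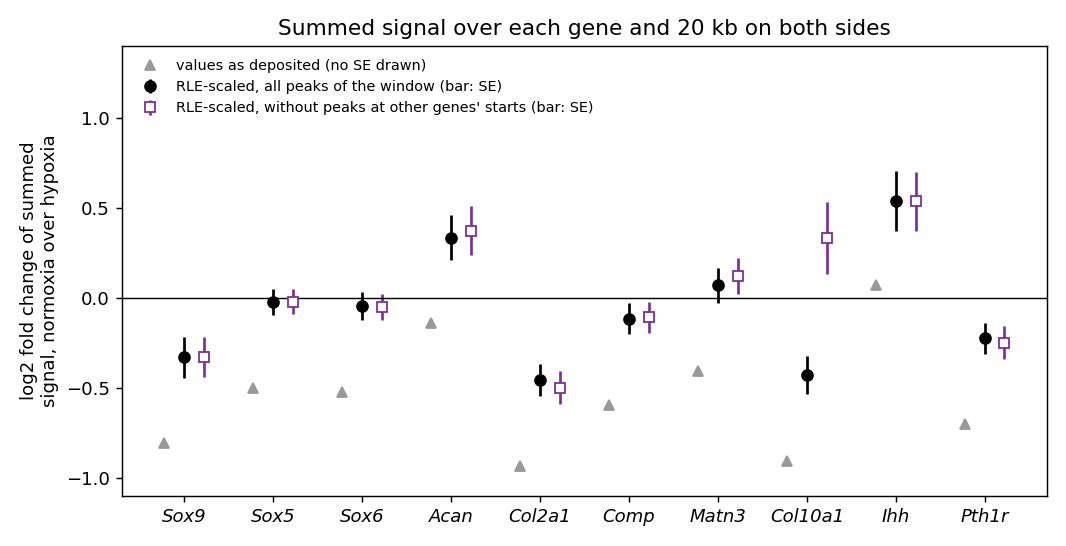
Log2 fold change (y axis, normoxia over hypoxia) of the signal summed over each gene and 20 kb on both sides, as deposited (grey triangles), after RLE scaling (black circles, bars are SE) and after RLE scaling without peaks at the starts of other genes (open squares, bars are SE). Col10a1 moves from -0.43 to 0.33 when the Nt5dc1 peak is left out, and Ihh lies at 0.54 after scaling but at 0.07 as deposited.

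How the signal of a gene is split between its promoter and the rest of its window can be read without any scaling between libraries. In Col2a1 the promoter held 43.7% and 44.1% of the signal in hypoxia and 34.3% and 36.0% in normoxia. In Sox6 the promoter peaks held 33.5% and 29.1% in hypoxia and 24.3% and 24.2% in normoxia, and in Comp 40.4% and 38.7% against 33.7% and 35.9%. The share was lower in both normoxia libraries in 5 of the 10 genes, namely Sox9, Sox5, Sox6, Col2a1 and Comp (50.1% of 14805 genes). It was higher in both in 1 gene, Col10a1, at 6.33% and 7.56% in hypoxia and 9.32% and 9.43% in normoxia (14.1% of genes). There the promoter signal itself was 15.9 and 19.7 in hypoxia against 10.9 and 15.0 in normoxia, and most of the rest of the window is the Nt5dc1 peak, which cannot be assigned to Col10a1. The median difference was -3.1 percentage points over the 10 genes and -2.1 over all genes.

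**Figure D5:**
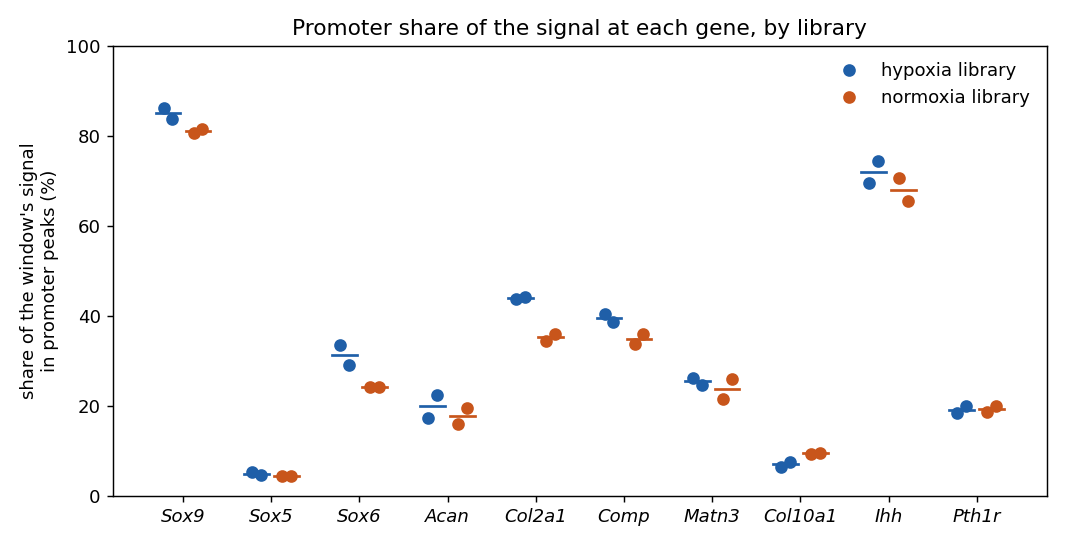
Share of each gene's signal (gene and 20 kb on both sides) that lies in its promoter peaks (y axis, %), with 1 point per library and a line at the mean of the 2 libraries of a group. Col2a1 averages 43.9% in hypoxia and 35.2% in normoxia, and Sox6 31.3% and 24.2%, without overlap of the groups.

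A list of 33 other cartilage genes was read in the same way. Their windows held 411 peaks, of which 14 were called lower (3.41%, against 4.57% of all peaks) and 3 higher (0.730%, against 1.77%). The lower peaks lay at 7 genes and the higher ones at 2, and the median log2 fold change of the 411 peaks was 0.01. By role, 6 of 78 peaks at chondrogenic transcription factor genes were called lower (7.69%, against the same 4.57% of all peaks) and 0 higher by limma. Of these 6, 4 lay at Mef2c and 2 at Trps1, so the share rests on few genes. The Mef2c peaks chr13:83517801-83518200 and chr13:83518201-83519100 adjoin each other. Of 86 peaks at matrix genes 4 were lower (4.65%, about the share of all peaks) and 0 higher, with a median of 0.13. Of 109 at growth plate signalling genes 1 was lower (0.917%) and 0 higher, and of 138 at genes of sulphation and chondroitin synthesis 3 were lower and 3 higher (2.17% each, against 4.57% and 1.77% of all peaks). All 3 lower peaks of that last group lay at Xylt1, where chr7:117469001-117475000 and chr7:117475001-117475400 adjoin each other. At an unadjusted limma p under 0.05 the higher peaks of the first 3 groups numbered 6, 15 and 11, and edgeR with RLE factors called 0, 2 and 1 of them higher.

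At the matrix gene Matn4 (matrilin-4) a wide upstream peak had 538 and 545 in hypoxia and 210 and 252 in normoxia (-0.75, SE 0.095, FDR 3.78e-06). The promoter of Col11a1, which encodes a chain of the type XI collagen that builds cartilage fibrils with type II collagen, had 182 and 212 against 81.3 and 83.8 (-0.76, FDR 8.75e-05). An upstream peak of Prg4, which encodes the joint lubricant lubricin, had 91.3 and 98.9 against 42.7 and 33.0 (-0.85, FDR 0.000527).

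Xylt1, which starts the glycosaminoglycan chains of aggrecan, had a promoter peak at 308 and 315 in hypoxia and 132 and 137 in normoxia (-0.73, FDR 3.24e-05). A peak past the end of Trps1, a regulator of growth plate chondrocytes, had 41.8 and 40.5 against 13.5 and 9.01 (-1.35, FDR 0.000176). The promoter of Mef2c, a driver of chondrocyte hypertrophy, had 149 and 186 against 68.6 and 75.1 (-0.73, FDR 0.00024). The promoter of Gli3, a transcription factor of the hedgehog pathway downstream of Ihh, had 318 and 290 against 139 and 167 (-0.51, FDR 0.0018).

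The 3 peaks called higher lay at genes of chondroitin sulphate synthesis, 2 in Csgalnact1 and 1 upstream of Chsy1, the latter named after its values were seen. The first Csgalnact1 peak had 76.1 and 93.8 in hypoxia and 84.7 and 111 in normoxia, which overlap on the deposited scale (0.67 after scaling, SE 0.14, FDR 0.0011). The Chsy1 peak had 8.85 and 7.82 against 12.7 and 19.0 (1.27, SE 0.27, FDR 0.0021). In the same fit, 2 of 81 peaks at osteogenic transcription factor genes were called lower (2.47%, against 4.57% of all peaks) and 0 higher by limma (8 higher at an unadjusted p under 0.05, and 0 called higher by edgeR), with a median of -0.02. At adipogenic regulators 6 of 99 were lower (6.06%) and 1 higher (1.01%, against 1.77% of all peaks), with a median of -0.06. The differences between these lists and the 10 cartilage genes were not tested.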

How the data were processed

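ATAC-seq was measured in 4 libraries, grouped by the oxygen level in the labels. The authors aligned reads to mm10 with bowtie2, removed duplicates with Picard and called 1 set of peaks with chromstaR from both groups in differential mode. The authors call the deposited signal RPKM, but it takes no account of the width of a peak: all values (100%) were multiples of the worth of 1 read, 10000000 divided by the library total, to within 0.01 of a whole number, so reads were recovered. Peak edges lie on a 100 bp grid. Levels were compared between groups with limma 3.58.1 in R 4.3.3 (eBayes, trend and robust options on) on RLE-scaled log2(value + 1), two-sided, and p-values were adjusted by Benjamini-Hochberg over 128055 peaks or 18696 loci. No filter on low values was used. Windows of neighbouring loci share peaks.

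On simulated data with 200 of 128055 peaks changed, limma recovered 91% of 4-fold and 33% of 2-fold changes with 1 false call. Whether these rates hold for weak member peaks, or with the unequal shares of reads in peaks seen here, was not tested. edgeR 4.0.16 on recovered reads, other scalings, filters, windows and left-out libraries were alternatives. Peaks of each gene were named by rule: the strongest promoter peak, the strongest other peak, the peak with the lowest p, and every called peak; others are given in counts. Up to 8 other cartilage genes with a called peak were named by lowest p. The genes, lists and rules were chosen with earlier results of these data known. Part of the blood marker list is not reported here, so the list is incomplete in the text. Recovered reads may count a fragment more than once, so no counting interval is given.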

Additional observations from a re-analysis of the deposited data

How the results depend on the processing

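With 2 libraries a group, single calls depend on the settings. The counts of member peaks called lower and higher (5 and 2) and of loci (2 and 1) became 27 and 0, with loci 8 and 0, on the deposited scale. They became 1 and 7, with loci 0 and 5, with equal totals over peaks, 0 and 1, with loci 0 and 0, under quantile normalization, and 2 and 1, with loci 0 and 0, under cyclic loess. limma without trend and robust called 0 and 0 peaks and 0 and 0 loci, while edgeR called 6 and 2 peaks and 3 and 1 loci with RLE. At an FDR under 0.05 they were 9 and 6, with loci 4 and 2. In the gene span only (0 kb) 3 peaks were lower and 0 loci higher, and within 50 kb 9 peaks were lower and 0 loci higher. GC correction gave 2 loci higher, and with the replicate block 5 peaks and 2 loci higher. Without peaks at starts of other genes, an alternative chosen after seeing the data, 1 locus was lower. Leaving out 1 library gave 0 to 7 peaks lower, 0 to 1 higher, 0 to 3 loci lower and 0 to 1 higher, and without either hypoxia library none of all 128055 peaks was called, the spread then coming from the normoxia libraries alone. For the 411 peaks of other cartilage genes, 14 lower and 3 higher became 88 and 0 as deposited, 7 and 28 with equal totals, 4 and 4 under quantile normalization, 5 and 5 under cyclic loess, 0 and 0 without trend and robust, 18 and 7 with edgeR and RLE, 15 and 5 with GC correction, 23 and 10 with the replicate block and 21 and 9 with both. The cause was not tested.

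The median log2 fold change of member peaks (0.08) was -0.36 as deposited, 0.35 with equal totals and 0.02 under quantile normalization and cyclic loess, and 0.03 to 0.12 with 1 library left out. That of member promoters (-0.26) was -0.73 as deposited, 0.03 with equal totals, -0.06 under quantile normalization and cyclic loess, -0.13 with GC correction, with or without the replicate block, -0.14 for promoters within 2 kb, -0.03 for the most upstream start only, and -0.29 to -0.18 with 1 library left out. As deposited, signs turned for the Acan sum (-0.14) and promoter (-0.29), the promoters of Col10a1 (-0.25) and Ihh (-0.01), the distal peaks of Comp (-0.29) and Matn3 (-0.34) and the Matn3 sum (-0.41). With equal totals they turned for the sums of Comp (0.17), Pth1r (0.07), Sox5 (0.27) and Sox6 (0.24), the promoters of Matn3 (0.25) and Sox5 (0.06), the strongest other peaks of Sox5 (0.16) and Sox6 (0.04), and the Sox9 last-exon peak (0.24). Under quantile normalization and cyclic loess they turned for the Comp sum (0.14 in both) and promoter (0.05 in both), the Matn3 promoter (0.11 and 0.12), the Sox5 sum (0.04 in both) and the strongest other Sox5 peak (0.20 and 0.19). The Sox6 sum was 0.00 under quantile normalization. GC correction, with or without the replicate block, turned the Comp sum (0.04), the Matn3 promoter (0.06) and the Sox9 last-exon peak (0.02). With a 50 kb window the sums of Acan (-0.15), Matn3 (-0.25) and Comp (0.00) turned, and the Col10a1 sum was 0.20 in the gene span only and 0.33 without peaks at other starts. Left-out libraries turned the Col10a1 promoter (-0.03 to 0.44), the Matn3 promoter (-0.16 to 0.10), the strongest other Sox5 peak (which reached 0.01) and the Sox9 last-exon peak (-0.11 to 0.04), none of them called in the reported fit.

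Libraries were not paired by their replicate numbers in the reported fit. The correlation of deviations from the group means was 0.011 over all peaks. With so few libraries in a group, this value cannot decide whether libraries of the same number shared a sort or animals. The paper describes dividing the sorted cells between the oxygen conditions, and whether the libraries were paired in this way was not tested. With the replicate block 7 member peaks were lower and 3 higher, and 3 loci lower and 1 higher. Peaks with a mean value under 10 rest on a median of 15 reads, which limits what can be detected there.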
